A study of Mus musculus with 12 samples.

Results

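The genes described here are 46 genes of the cell cycle and of DNA replication, taken from a fixed list of symbols and found as 1 row each among the 57010 genes of the count table. Members are taken by their symbols, on a list drawn up with earlier results of these data known, and all 46 passed the filter on low counts that left 15425 genes for testing. Replication genes make up 18 of them (13 for licensing and firing of origins and 5 for nucleotide supply and the replication fork), 10 control entry into S phase, and 18 act in mitosis. The study compared LSD1WT with LSD1cKO mice, in which the histone demethylase LSD1 (gene Kdm1a) is removed from myeloid cells by a Cre recombinase under the Lyz2 (LysM) promoter. Bone marrow cells of female mice received M-CSF and RANKL in culture over 2 days, and polyA RNA of the resulting preosteoclasts was sequenced. The 12 libraries are 2 of each genotype for 3 sources of marrow, the mandible of mice that carried silk ligatures on maxillary molars of both sides over 7 days, the femur of such mice, and the femur of mice without a ligature. They came from 9 mice, 5 LSD1WT and 4 LSD1cKO, and both sites were sampled in 1 LSD1WT and 2 LSD1cKO mice with ligature. The labels give an age of 2 months and the sequencing methods a different one.

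Before DNA is copied, the origin recognition complex, Cdc6 and Cdt1 load the MCM helicase onto origins in G1, and GINS proteins help to switch it on in S phase. Cyclin D with Cdk4 and cyclin E with Cdk2 release E2F factors, which drive transcription of these replication genes, while the CDK inhibitors p21 (Cdkn1a) and p27 (Cdkn1b) hold the kinases back. Genes for mitosis peak later, in G2 and M phase, with Foxm1 among their activators. Osteoclast precursors divide in response to M-CSF and leave the cell cycle as RANKL drives them to fuse. In bulk RNA a lower level of these transcripts in every cell and a smaller share of dividing cells cannot be told apart.

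Total counts per library were 21375805 to 32526751. Kdm1a (ENSMUSG00000036940) was at 61.2 to 71.3 CPM (read counts relative to the scaled size of the library) in the LSD1WT libraries and at 15.6 to 24.3 CPM in the LSD1cKO libraries, so each library matched the genotype of its label. Mandible LSD1WT replicate 3 is called mandible in its title and femur in its library name. It was kept as mandible, and it differs from replicate 1 by only 1.54 times the sampling noise (median over genes), with a biological coefficient of variation of 0.0247 against 0.0987 to 0.716 in the other pairs. Nothing in the labels states that the libraries of a pair are separate cultures, so p values measure the spread between these libraries. In the femur, LSD1WT replicate 2 of the ligated and of the unligated group stood apart, with 1026 and 1042 CPM summed over 16 osteoclast markers where the other 10 libraries had 13850 to 44530 CPM. Summed macrophage markers were at 44910 and 21840 CPM in these libraries, and at 2930 to 10550 CPM in the others. Markers of T and NK cells summed to at most 0.44 CPM in any library and those of B cells to at most 8.94 CPM. A count of 0 allows 3 counts, or 0.0927 to 0.154 CPM by library, and such limits cover counting error only.

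**Figure D1:**
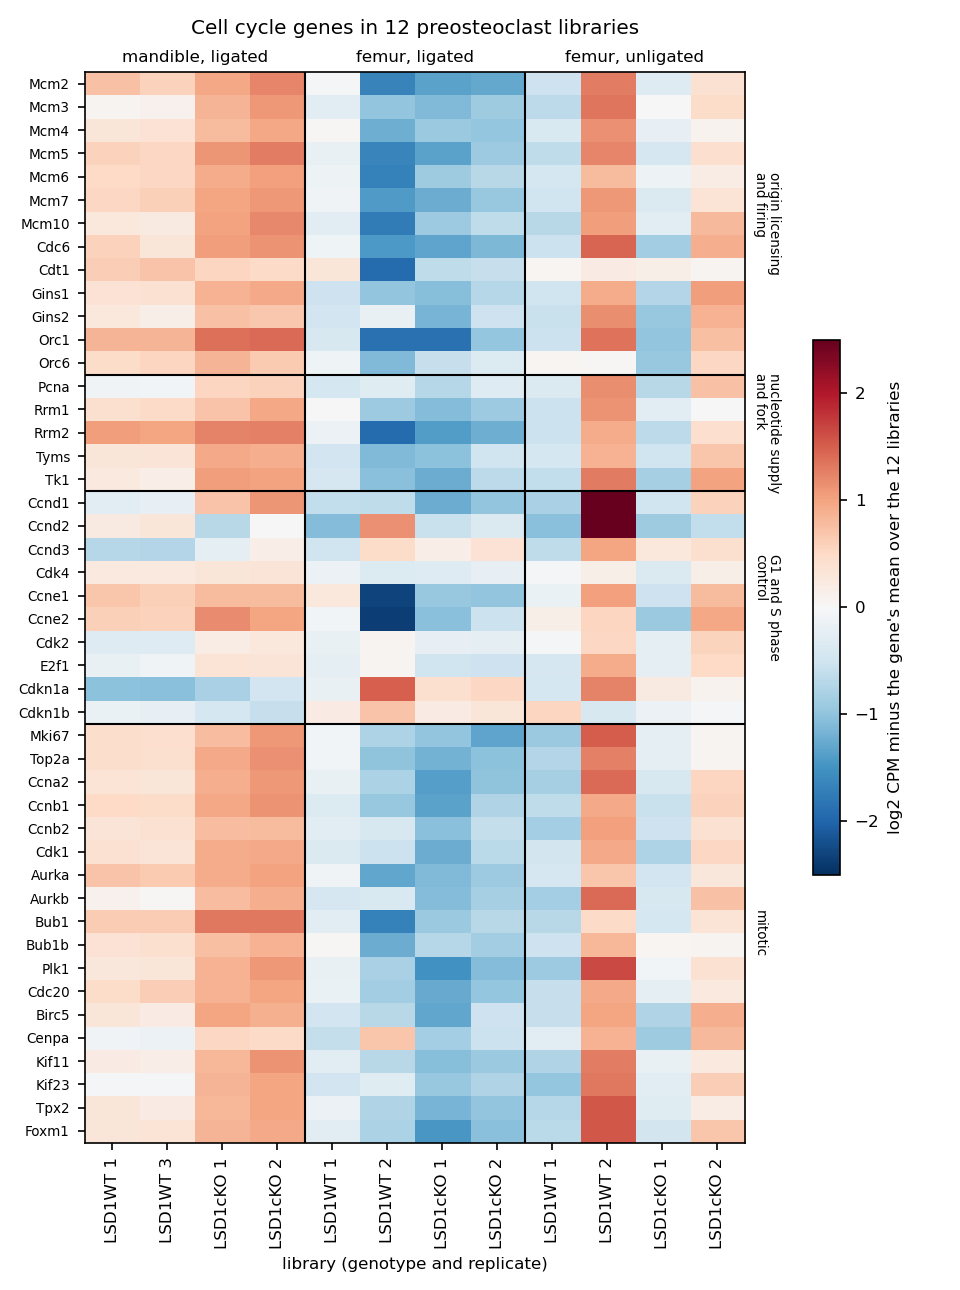
Expression of the 46 genes in the 12 libraries, as log2 CPM minus the mean of the gene over all libraries (red higher, blue lower; values beyond the scale take its end colour). Rows are genes by group and columns are libraries by culture, genotype and replicate number. Most replication and mitotic genes are red in the 4 mandible libraries and in unligated femur LSD1WT replicate 2, and blue in the ligated femur.

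To give each library a level for a group of genes, the median over the genes of log2 CPM minus the mean of the gene over the 12 libraries was taken. For the replication genes this level was 0.43 and 0.43 in mandible LSD1WT and 0.93 and 1.02 in mandible LSD1cKO. In the ligated femur it was -0.16 and -1.31 in LSD1WT and -1.09 and -0.80 in LSD1cKO, and in the unligated femur -0.52 and 1.14 in LSD1WT and -0.46 and 0.49 in LSD1cKO. Both mandible groups therefore lay above both ligated femur groups, and the unligated femur libraries were spread from below all mandible libraries to above them. The level of the mitotic genes was 0.34 and 0.34 in mandible LSD1WT, 0.86 and 0.99 in mandible LSD1cKO, -0.26 and -0.78 in ligated femur LSD1WT, and -1.13 and -0.88 in ligated femur LSD1cKO. In the unligated femur it was -0.69 and 1.14 in LSD1WT and -0.40 and 0.38 in LSD1cKO. The mitotic level was within -0.18 to 0.06 of the replication level in 11 libraries, and ligated femur LSD1WT replicate 2 was the exception, where it was 0.53 above it. That library was the lowest of all 12 for 12 of the 18 replication genes but for 3 of the 18 mitotic genes, while ligated femur LSD1cKO replicate 1 was the lowest for 12 of the 18 mitotic genes. At the other end, unligated femur LSD1WT replicate 2 was the highest library for 9 replication, 12 mitotic and 5 S phase entry genes.

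**Figure D2:**
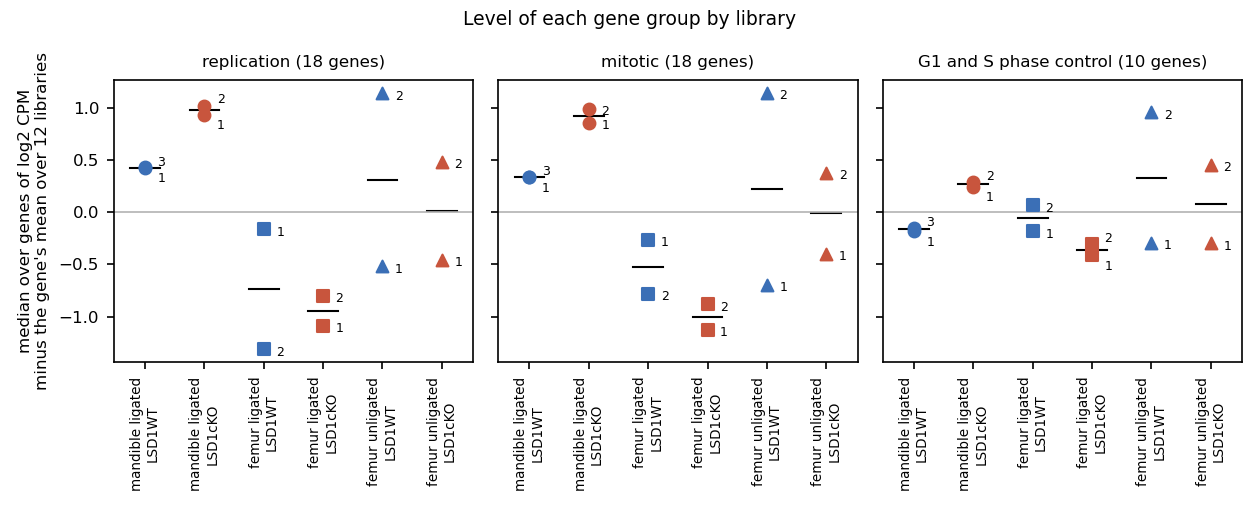
Level of the replication, mitotic and S phase entry genes in each library, as the median over the genes of log2 CPM minus the mean of the gene over the 12 libraries. Points are libraries with their replicate number (blue LSD1WT, red LSD1cKO), bars are the mean of the 2 libraries, and the S phase entry genes are named G1 and S phase control. The LSD1cKO mandible libraries lie above the LSD1WT ones, the ligated femur libraries are below 0 in the first and middle panels, and the unligated LSD1WT libraries are the widest apart.

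Among the genes that license origins, Mcm5 (ENSMUSG00000005410), a subunit of the MCM helicase, was at 108 and 104 CPM in mandible LSD1WT and 156 and 175 CPM in mandible LSD1cKO, at 63.8 and 23.1 and 28.6 and 38.8 CPM in the ligated femur of the same genotypes, and at 46.9 and 169 and 54.4 and 96.3 CPM in the unligated femur. Mcm3, another subunit, had 57.5 and 59 CPM in mandible LSD1WT, 98 and 115 in mandible LSD1cKO, 45.2 and 27.8 and 25.6 and 29.5 in the ligated femur, and 34.7 and 139 and 54.1 and 74.9 in the unligated femur. For both subunits the mandible libraries were above every ligated femur library, and the LSD1cKO mandible libraries were above the LSD1WT ones. Cdc6 (ENSMUSG00000017499), the ATPase that helps to load the helicase, ran parallel at lower values, with 13.9 and 11.5 CPM in mandible LSD1WT, 19.3 and 20.3 in mandible LSD1cKO, 8.67 and 3.49 and 3.77 and 4.3 in the ligated femur, and 6.49 and 25.8 and 5.13 and 17.5 in the unligated femur. The other helicase subunits covered 12.4 to 95.1 CPM (Mcm2), 22.4 to 116 CPM (Mcm4), 50.5 to 332 CPM (Mcm6) and 24.3 to 138 CPM (Mcm7) over the 12 libraries. Mcm10, which acts in helicase activation, covered 5.95 to 45.6 CPM, the GINS subunits Gins1 and Gins2 3.54 to 15.2 and 7.31 to 36.7 CPM, and the origin recognition subunits Orc1 and Orc6 0.77 to 7.57 and 10.9 to 42.1 CPM. Cdt1, the partner of Cdc6 in loading, ranged over 17.1 to 106 CPM and was the replication gene whose mandible libraries were lower in LSD1cKO than in LSD1WT (94.5 and 90.6 against 99.6 and 106 CPM).

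In the group that supplies nucleotides and serves the fork, Rrm2 (ENSMUSG00000020649), the small subunit of ribonucleotide reductase, had 102 and 98.5 CPM in mandible LSD1WT and 117 and 118 CPM in mandible LSD1cKO. Its ligated femur values were 44.8 and 13 CPM in LSD1WT and 18.7 and 21.3 CPM in LSD1cKO, and its unligated femur values were 33.9 and 94.3 and 31.4 and 66.1 CPM. Mandible values of Rrm2 were thus above every value of the femur in both ligature groups. Pcna (ENSMUSG00000027342), the sliding clamp of the polymerases, varied less, with 166 and 168 CPM in mandible LSD1WT, 255 and 262 in mandible LSD1cKO, 129 and 142 and 106 and 139.5 in the ligated femur, and 137 and 392 and 108 and 289.6 in the unligated femur. Tyms, the thymidylate synthase, was at 25.3 and 25.5 CPM in mandible LSD1WT, 39.2 and 38.6 in mandible LSD1cKO, 14.8 and 9.49 and 10 and 14.6 in the ligated femur, and 15.2 and 37.2 and 14.4 and 33 in the unligated femur. Over the 12 libraries Rrm1, the large subunit of the reductase, ranged over 58 to 269 CPM and the thymidine kinase Tk1 over 15 to 88 CPM. Pseudogenes named after Pcna, Tyms, Ccnb1, Ccnb2 and Ccnd3 stayed at or below 2.65 CPM each. Per kilobase of exon, Pcna had the highest median level of the 46 genes (64.2 CPM per kilobase), followed by Cdk4 (50.7) and Mcm6 (35.6), and Orc1 (0.99) and Ccnd2 (0.48) had the lowest.

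Of the genes of mitosis, Mki67 (ENSMUSG00000031004), the proliferation antigen that coats mitotic chromosomes, was at 276 and 271 CPM in mandible LSD1WT and 349 and 432 CPM in mandible LSD1cKO. Ligated femur libraries had 194 and 118 CPM of it in LSD1WT and 103 and 81.3 CPM in LSD1cKO, and unligated femur libraries had 106 and 583 and 174 and 214 CPM. The conditions of ligated mice thus ran without overlap from mandible LSD1cKO through mandible LSD1WT and ligated femur LSD1WT down to ligated femur LSD1cKO, and the unligated LSD1WT pair enclosed all other libraries but those of ligated femur LSD1cKO. Top2a (ENSMUSG00000020914), the topoisomerase that untangles sister chromatids, had 261 and 255 CPM in mandible LSD1WT, 369 and 423 in mandible LSD1cKO, 184 and 95.9 and 84.1 and 95 in the ligated femur, and 116 and 463 and 161 and 200.2 in the unligated femur. Cdk1 (ENSMUSG00000019942), the kinase that starts mitosis, had 86.4 and 83.4 CPM in mandible LSD1WT, 126 and 128 in mandible LSD1cKO, 51.4 and 45.8 and 27.9 and 41.8 in the ligated femur, and 48.3 and 127 and 38.7 and 94.5 in the unligated femur. Its partner cyclin B1 (Ccnb1, ENSMUSG00000041431) was at 81.7 and 79.4 CPM in mandible LSD1WT, 113 and 126 in mandible LSD1cKO, 45.4 and 29.8 and 22.9 and 34.5 in the ligated femur, and 37.4 and 111 and 39.2 and 85.7 in the unligated femur. These genes share 1 order of conditions in the ligated mice, with mandible LSD1cKO above mandible LSD1WT and both above the femur.

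The kinases Aurka and Plk1 act at spindle poles and in mitotic entry. Aurka was at 57.9 and 55.9 CPM in mandible LSD1WT, 67.2 and 70.7 in mandible LSD1cKO, 33.4 and 14.3 and 16.5 and 18.9 in the ligated femur, and 26.3 and 57.1 and 25.5 and 43.3 in the unligated femur. For Plk1 the values were 38.3 and 38.5 CPM in mandible LSD1WT, 57.6 and 66.7 in mandible LSD1cKO, 27.5 and 17.9 and 11 and 14.8 in the ligated femur, and 16.7 and 98.1 and 30 and 40.9 in the unligated femur. Bub1, a kinase of the spindle checkpoint, and Cdc20, the activator of the anaphase-promoting complex that the checkpoint restrains, were read next. Bub1 had 75 and 74.2 CPM in mandible LSD1WT, 119.9 and 119 in mandible LSD1cKO, 39.2 and 14.8 and 25.3 and 29.6 in the ligated femur, and 29.9 and 66.9 and 35.2 and 61.2 in the unligated femur. Cdc20 had 52.8 and 58.8 CPM in mandible LSD1WT, 70.9 and 76 in mandible LSD1cKO, 34.1 and 21.1 and 16.2 and 19.7 in the ligated femur, and 25.7 and 74.1 and 32.4 and 45.6 in the unligated femur. In all 4 genes the mandible libraries lay above the ligated femur libraries of the same genotype, and Aurka and Bub1 were lowest in ligated femur LSD1WT replicate 2.

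The motor proteins Kif11 and Kif23 build the spindle and the midbody. Kif11 was at 61.9 and 60.7 CPM in mandible LSD1WT, 96.5 and 118 in mandible LSD1cKO, 45 and 33.6 and 26 and 28.3 in the ligated femur, and 32.2 and 131 and 47.3 and 64.2 in the unligated femur. Kif23 was at 44.1 and 43.8 CPM in mandible LSD1WT, 80.3 and 88.5 in mandible LSD1cKO, 32.2 and 36 and 23.3 and 26.7 in the ligated femur, and 22.9 and 112 and 36.9 and 68.1 in the unligated femur. The spindle assembly factor Tpx2 and the transcription factor Foxm1 had a similar order. Tpx2 had 61 and 56.9 CPM in mandible LSD1WT, 87.4 and 98.3 in mandible LSD1cKO, 44.4 and 29.4 and 22.1 and 24.8 in the ligated femur, and 30.3 and 144 and 39.8 and 56.4 in the unligated femur. Foxm1 had 41 and 42.2 CPM in mandible LSD1WT, 59.6 and 64.3 in mandible LSD1cKO, 27.3 and 19.2 and 12.1 and 16.2 in the ligated femur, and 21 and 97.3 and 24.2 and 54 in the unligated femur. Cenpa, the histone variant of centromeres, departed from this order, since ligated femur LSD1WT replicate 2 was among its highest libraries. Its values were 57.1 and 54.4 CPM in mandible LSD1WT, 86.8 and 84.3 in mandible LSD1cKO, 39.9 and 97.5 and 33.7 and 41.4 in the ligated femur, and 50.4 and 110.2 and 32.9 and 106 in the unligated femur. The remaining mitotic genes covered 29.3 to 205 CPM (Ccna2, cyclin A2), 23.5 to 98.2 CPM (Ccnb2, cyclin B2), 12.1 to 68 CPM (Aurkb, a kinase of the chromosomal passenger complex), 17 to 83.1 CPM (Birc5, survivin, of the same complex) and 25.5 to 109.5 CPM (Bub1b, of the spindle checkpoint).

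The genes that control entry into S phase did not move as 1 group. Cyclin D1 (Ccnd1, ENSMUSG00000070348) was at 92.7 and 97.3 CPM in mandible LSD1WT, 185 and 243 in mandible LSD1cKO, 73.4 and 72.2 and 47.5 and 57 in the ligated femur, and 64.7 and 839 and 80.4 and 169 in the unligated femur. Cyclin D2 (Ccnd2, ENSMUSG00000000184) was scarce, with 7.22 and 7.6 CPM in mandible LSD1WT, 3.85 and 6.15 in mandible LSD1cKO, 2.94 and 13.6 and 4.24 and 4.82 in the ligated femur, and 3.02 and 74.4 and 3.35 and 4.03 in the unligated femur. Cyclin D3 (Ccnd3, ENSMUSG00000034165) had 24 and 23.9 CPM in mandible LSD1WT, 33.9 and 44.5 in mandible LSD1cKO, 27.9 and 54.9 and 44.4 and 50.9 in the ligated femur, and 25.5 and 78.1 and 47.8 and 52.6 in the unligated femur. Per kilobase of exon, Ccnd1 was above Ccnd3 and Ccnd3 above Ccnd2 in each of the 12 libraries. All 3 cyclins had their highest value in unligated femur LSD1WT replicate 2, where Ccnd1 and Ccnd2 were far above every other library.

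Cdk4 (ENSMUSG00000006728), the kinase partner of the D cyclins, was the steadiest, with 188 and 186 CPM in mandible LSD1WT, 196 and 199 in mandible LSD1cKO, 142 and 124 and 126 and 137 in the ligated femur, and 155 and 176 and 123 and 174 in the unligated femur. Cdk2, the partner of cyclin E, was at 38 and 37.9 CPM in mandible LSD1WT, 53.8 and 56.8 in mandible LSD1cKO, 41.7 and 49.6 and 41.4 and 39.9 in the ligated femur, and 45.7 and 67.7 and 40.4 and 69.5 in the unligated femur. Cyclin E1 (Ccne1, ENSMUSG00000002068) followed the replication genes, with 15.3 and 14.3 CPM in mandible LSD1WT, 16.3 and 16.3 in mandible LSD1cKO, 11.4 and 1.9 and 4.9 and 4.73 in the ligated femur, and 8.4 and 19.1 and 6.56 and 16.2 in the unligated femur. Ligated femur LSD1WT replicate 2 was its lowest library and also the lowest of Ccne2 (cyclin E2), which ranged over 5.08 to 58.6 CPM. The transcription factor E2f1 (ENSMUSG00000027490) was at 26.8 and 28.9 CPM in mandible LSD1WT, 38.6 and 38.2 in mandible LSD1cKO, 26 and 32.1 and 21.6 and 21.4 in the ligated femur, and 22.9 and 58.6 and 26.2 and 43.5 in the unligated femur.

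Of the inhibitors, Cdkn1a (ENSMUSG00000023067), which encodes p21, was at 59.3 and 58.3 CPM in mandible LSD1WT, 68.3 and 86.3 in mandible LSD1cKO, 106 and 339.6 and 158 and 171 in the ligated femur, and 89.2 and 284 and 141 and 128 in the unligated femur. Cdkn1b (ENSMUSG00000003031), which encodes p27, was at 74.4 and 72.2 CPM in mandible LSD1WT, 61.6 and 56.5 in mandible LSD1cKO, 96.8 and 138 and 97.1 and 103 in the ligated femur, and 121 and 63.6 and 75.8 and 82.7 in the unligated femur. All 4 mandible libraries had less Cdkn1a than any of the 8 femur libraries, and for Cdkn1b this held against the 4 ligated femur libraries.

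**Figure D3:**
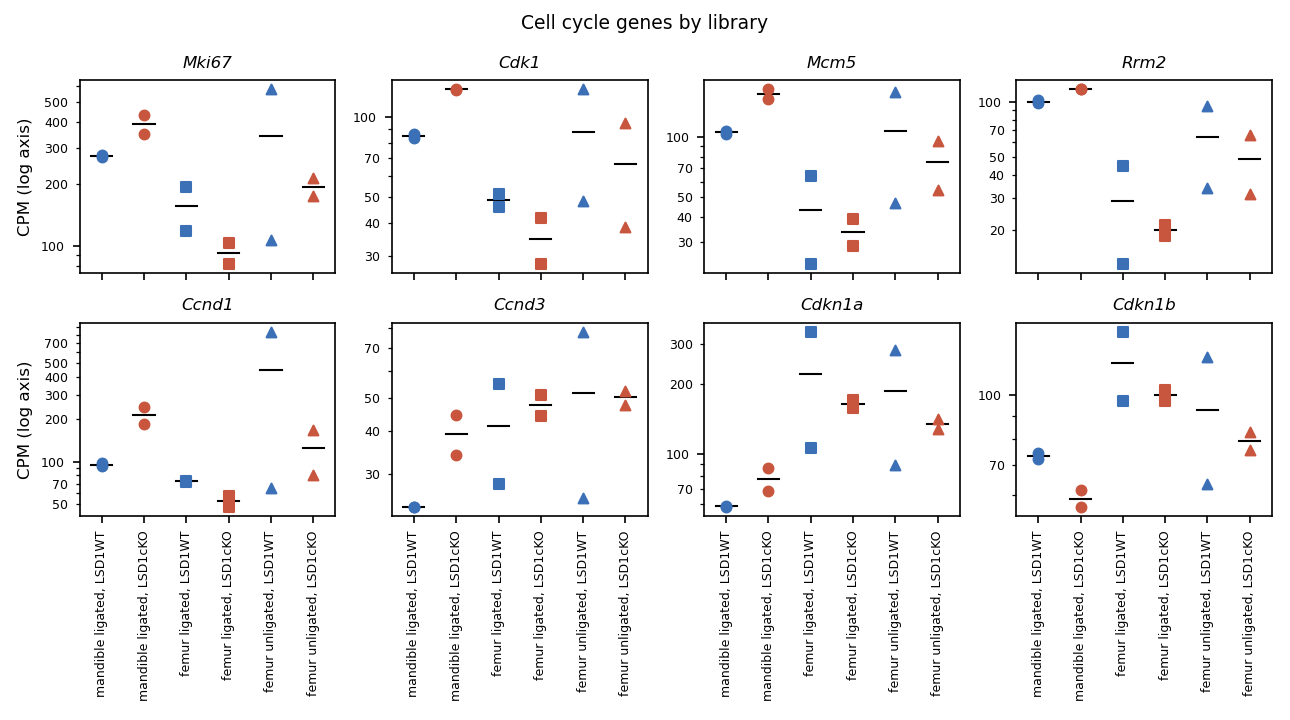
CPM of 8 genes by library on log axes, 4 that follow the group levels and 4 that control entry into S phase. Points are libraries (blue LSD1WT, red LSD1cKO) and bars are the mean of the 2 libraries of a condition. In ligated mice Mki67, Cdk1, Mcm5 and Rrm2 are higher in the mandible than in the femur, and Cdkn1a is lower there than in every femur library.

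Since most replication genes and most mitotic genes varied together, their promoters were read for the letters of known cell cycle elements. RefSeq windows (build GRCm38.p6, from 250 bases before the start of the gene) were at hand for 36 of the 46 genes, 15 for replication, 7 for S phase entry and 14 for mitosis. The E2F element was searched as TTTCCCGC, TTTCGCGC, TTTGCCGC or TTTGGCGC, and the cell cycle homology region (CHR), an element of many mitotic promoters, as TTTGAA, each on both strands. An E2F match lay upstream of 5 of the 15 replication genes (Cdc6, Mcm5, Mcm6, Mcm7 and Orc1), 1 of the 7 S phase entry genes (Cdk2) and 1 of the 14 mitotic genes (Cdk1), and in 1.86% of all 32851 windows. A CHR match lay upstream of 6 of the 14 mitotic genes (Ccnb2, Cdc20, Cdk1, Kif11, Mki67 and Top2a), 1 of the 15 replication genes (Mcm2) and 0 of the 7 S phase entry genes, and in 16% of all windows. The CCAAT box, searched as CCAAT on both strands, was found for 11 of the 15, 3 of the 7 and 13 of the 14, and in 33.8% of all windows. A match is a run of letters and does not show that a factor binds there. The stretches below, on the strand of the gene, were chosen to show both elements where no annotated exon overlaps, with 1 match in capitals (Mki67 holds another CHR further on in lower case, and in Mcm5 and Mcm6 an E2F match on the opposite strand overlaps the one marked), and the last holds the CHR on the opposite strand.
Mcm5 (E2F, chr8:75109316-75109403, plus strand): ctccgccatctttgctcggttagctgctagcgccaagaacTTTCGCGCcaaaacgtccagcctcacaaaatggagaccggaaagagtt
Mcm6 (E2F, chr1:128359768-128359855, minus strand): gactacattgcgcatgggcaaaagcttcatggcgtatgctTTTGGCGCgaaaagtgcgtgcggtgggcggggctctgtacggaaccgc
Cdk1 (E2F, chr10:69352996-69353083, minus strand): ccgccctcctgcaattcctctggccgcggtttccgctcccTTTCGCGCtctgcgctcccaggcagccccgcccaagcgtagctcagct
Mki67 (CHR, chr7:135716450-135716535, minus strand): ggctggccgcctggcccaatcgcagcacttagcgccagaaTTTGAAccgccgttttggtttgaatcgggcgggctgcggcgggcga
Top2a (CHR, chr11:99024323-99024408, minus strand): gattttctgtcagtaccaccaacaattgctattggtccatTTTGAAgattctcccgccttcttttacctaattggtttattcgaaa
Ccnb2 (CHR, chr9:70421676-70421761, minus strand): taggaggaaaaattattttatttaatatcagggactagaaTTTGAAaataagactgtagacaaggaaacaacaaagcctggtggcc
Kif11 (CHR, chr19:37376323-37376381, plus strand): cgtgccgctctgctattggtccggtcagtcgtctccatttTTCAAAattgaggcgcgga
The genes with these E2F stretches, Mcm5 and Mcm6, and those with the CHR stretches, Mki67, Top2a, Ccnb2 and Kif11, were all higher in mandible LSD1cKO than in mandible LSD1WT, and higher in the mandible than in the ligated femur of the same genotype, as was Cdk1 with both elements. Most of the 46 genes did the same, 43 by genotype in the mandible, and 42 (LSD1cKO) and 39 (LSD1WT) by site, all without overlap. The shared direction therefore does not set genes with an element apart.

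For the tests, edgeR's quasi-likelihood method was applied to the 12 libraries in 1 fit with a coefficient for each of the 6 conditions, and p values were adjusted over the 15425 genes (Benjamini-Hochberg, threshold 0.05). The biological coefficient of variation shared by the genes was 0.419 in this fit, which takes in the wide femur LSD1WT pairs. Of the 46 genes, 0 passed in any comparison between conditions, and over all genes 0 passed in each, except 1 (0.00648%) for LSD1cKO against LSD1WT in the ligated femur. The values below are therefore sizes with their errors, and calls made in other fits are given beside them.

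**Figure D4:**
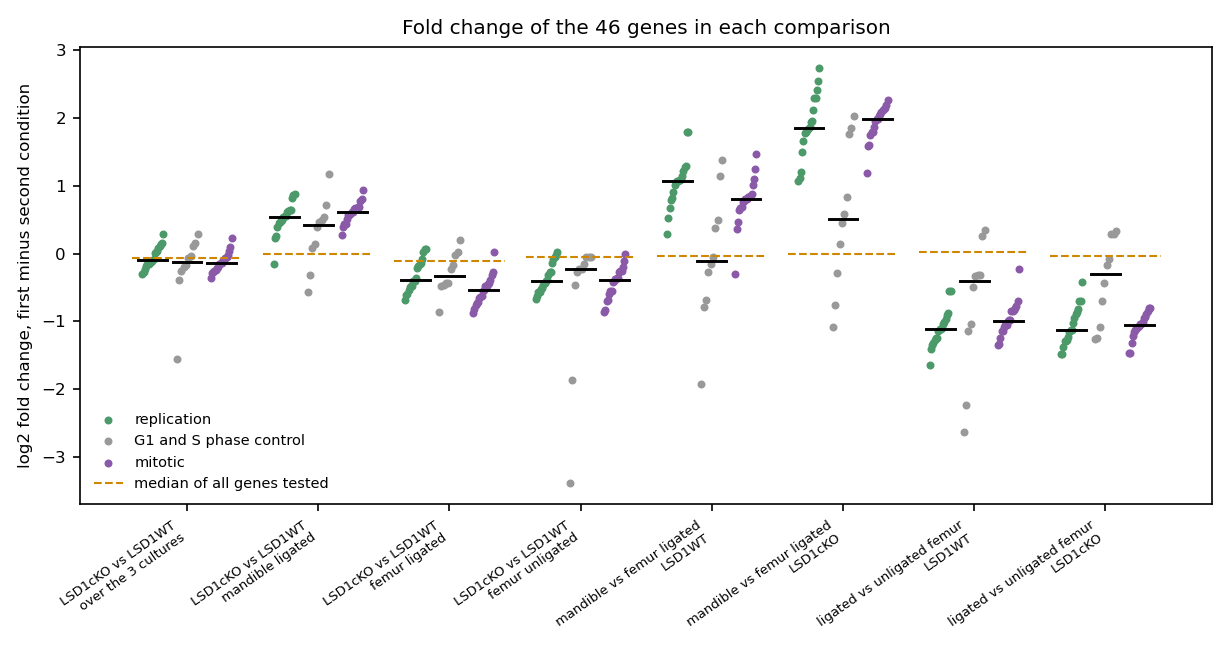
Log2 fold change of the 46 genes in 8 comparisons, first condition minus second, from edgeR's fits of all 12 libraries. Points are genes (green replication, grey S phase entry, named G1 and S phase control, purple mitotic), black bars are group medians and dashed lines the median of all genes tested. The replication and mitotic medians lie above the dashed line in the 3 mandible comparisons and below it in the other 5.

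The site comparison asked whether cells grown from mandible differed from those grown from femur of ligated mice. In LSD1cKO mice all 18 replication and all 18 mitotic genes were higher in both mandible libraries than in both femur libraries, with median log2 differences of 1.85 (range 1.07 to 2.74) and 1.98 (1.19 to 2.27), or 3.61-fold and 3.95-fold. Among the S phase entry genes 6 were higher and 2 lower without overlap, the latter being Cdkn1a and Cdkn1b. In all, 42 of 46 were higher and 2 lower without overlap, where 35.3% and 35% of all genes were, and the median of all genes was -0.004. At an unadjusted p under 0.05 there were 36 higher and 1 lower, where 8.18% and 6.81% of all genes were (edgeR's quasi-likelihood test). Cdc20 had the smallest p, with a log2 fold change of 2.03 (SE 0.47) and an adjusted p of 0.158 (edgeR's quasi-likelihood test). Bub1 followed with 2.12 (SE 0.52) and Aurka with 1.96 (SE 0.48), both with an adjusted p of 0.178 (edgeR's quasi-likelihood test).

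These LSD1cKO libraries are pairs from the same 2 mice, and a fit of the 8 ligated libraries with the mouse as a block called 44 of the 46 genes, all 18 replication and all 18 mitotic genes higher, and 6 S phase entry genes higher and 2 lower (edgeR's quasi-likelihood test). It called 18.9% of all genes as higher and 18.6% as lower, with a biological coefficient of variation of 0.119. That spread comes from the 2 LSD1cKO mice alone, since the condition and mouse terms take up the LSD1WT libraries. The small p values of this fit therefore rest on 2 mice. There Rrm2 had a log2 fold change of 2.55 (SE 0.16) and an adjusted p of 1.56e-10, Orc1 had the largest rise of the 46 at 2.77 (SE 0.28, adjusted p 1.3e-07), and Plk1 had the largest among the mitotic genes at 2.28 (SE 0.16, adjusted p 7.44e-10; edgeR's quasi-likelihood test for all). Cdkn1a fell by 1.10 on the log2 scale (SE 0.155, adjusted p 1.07e-05) and Cdkn1b fell by 0.76 (SE 0.152, adjusted p 4.82e-04), while Ccnd2 (0.11) and Ccnd3 (-0.29) were the genes not called (edgeR's quasi-likelihood test). A fit of these 4 libraries alone also called 44, where it called 21.4% of all genes as higher and 20.8% as lower. DESeq2 without a block called 24, 11 replication and 13 mitotic genes, with 2.24% of all genes called higher, and edgeR without a filter on low counts called 19, 7 replication and 12 mitotic genes, with 1.21% of all genes called. Without 1 of the femur LSD1WT libraries the fit of all libraries called 8 (ligated replicate 1), 7 (ligated replicate 2) or 9 genes (either unligated replicate), where 0.761% to 4.25% of all genes were called, and without both replicates 2 it called 38, with 10.7% of all genes called higher and 11% lower. Marker sums moved with the site in these LSD1cKO libraries, from 10130 and 10550 CPM in the femur to 2930 and 3671 CPM in the mandible for 10 macrophage genes, from 338 and 314 CPM to 108 and 133 CPM for 5 monocyte genes, from 22920 and 20160 CPM to 16850 and 16920 CPM for the osteoclast genes, and from 589.8 and 541 CPM to 1178 and 1158 CPM for the erythroid genes, most of which did not pass the filter on low counts. Their part in the difference was not tested.

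In LSD1WT mice the same comparison gave 39 genes higher and 4 lower without overlap, where 29.2% and 31.5% of all genes were. The 18 replication genes were all higher in the mandible, by a median of 1.07 (range 0.30 to 1.79), and 17 of the 18 mitotic genes were, by a median of 0.81, the exception being Cenpa at -0.30. At an unadjusted p under 0.05, 5 genes were higher and 1 lower, where 5.06% and 14.7% of all genes were. Cdkn1a had the smallest p, with a mean of 58.8 ± 0.696 CPM in the mandible (SD, n = 2) and of 223 ± 165 CPM in the femur (SD, n = 2), a log2 fold change of -1.92 (SE 0.61, adjusted p 0.189 in edgeR's quasi-likelihood test). Bub1 had 1.46 (SE 0.51, adjusted p 0.201) and Rrm2 had 1.79 (SE 0.64, adjusted p 0.203) in the same test. DESeq2 called 1 gene, Cdkn1a, with 6.86% of all genes called lower, and so did the fit without a filter on low counts, with 3.02% of all genes called. The size rested on the femur libraries, since the replication and mitotic medians were 1.77 and 1.15 without ligated femur replicate 1, when 11 genes (5 replication and 3 mitotic genes, Ccne1 and Ccne2 higher, Cdkn1a lower) and 23.2% of all genes were called, and 0.62 and 0.50 without replicate 2, when 0 were. Either leaves 1 femur library, which is assumed to vary like the other groups. With the mouse as a block 12 genes were called, 6 replication and 4 mitotic genes higher, Ccnd2 higher and Cdkn1a lower, where 2.62% of all genes were called higher and 4.56% lower (edgeR's quasi-likelihood test). That estimate rests on the 1 LSD1WT mouse with both sites and its spread comes from the 2 LSD1cKO mice, so the calls carry no measure of how LSD1WT mice vary, and Ccnd2 changed direction from the unblocked fit of the compared libraries (1.34 against -0.11).

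The next question was whether loss of LSD1 changed these genes in mandible cells. All 18 mitotic genes, 17 of 18 replication genes and 8 of 10 S phase entry genes had every LSD1cKO library above every LSD1WT library, and Cdt1, Ccnd2 and Cdkn1b were lower in both. That is 43 higher and 3 lower, where 34.1% and 34.8% of all genes did not overlap in each direction. The median log2 fold change was 0.62 (1.54-fold) for mitotic, 0.54 (1.46-fold) for replication and 0.43 for S phase entry genes, against 0 for all genes. Of the 46, 0 had an unadjusted p under 0.05, where 4.82% of all genes did, and DESeq2 also called 0 (0 at an unadjusted p under 0.05). Cdk2 had the smallest p, with a mean of 37.9 ± 0.0861 CPM for LSD1WT (SD, n = 2) and of 55.3 ± 2.09 CPM for LSD1cKO (SD, n = 2), a log2 fold change of 0.54 (SE 0.285, 95% interval -0.11 to 1.19). Mcm3 had 0.87 (SE 0.54) and Kif23 had 0.94 (SE 0.60), and all 3 had an adjusted p of 1 (edgeR's quasi-likelihood test). A fit of the 4 mandible libraries alone, with a biological coefficient of variation of 0.0678, called 42 genes, 41 higher and 1 lower (Cdkn1b), where it called 19.2% of all genes as higher and 18.6% as lower, and it takes the nearly identical LSD1WT pair as independent (edgeR's quasi-likelihood test). Without both femur LSD1WT replicates 2 the fit of all conditions called Mcm3, Mcm4, Kif11 and Ccnd3 as higher, with 5.13% of all genes called higher (edgeR's quasi-likelihood test). Summed osteoclast markers were at 29170 and 29050 CPM in these LSD1WT libraries and 16850 and 16920 CPM in the LSD1cKO libraries. The erythroid sum was at 2248 and 2257 CPM in LSD1WT and 1178 and 1158 CPM in LSD1cKO, that of 8 stromal genes at 59.9 and 58.8 CPM and at 11.9 and 6.3 CPM, and the monocyte sum at 54.7 and 58.0 CPM and at 108 and 133 CPM. The part of these cells in the difference was not tested.

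In the ligated femur the direction was the other one. Of the 46 genes 40 had a lower mean in LSD1cKO and 6 a higher one, where 39.5% of all genes had a higher mean. Without overlap 16 were lower and 0 higher, where 19.4% and 14.8% of all genes were, and the 16 are 12 mitotic, 3 S phase entry genes and 1 replication gene. The median log2 fold change was -0.54 for mitotic and -0.39 for replication genes, against -0.12 for all genes, and 0 of the 46 had an unadjusted p under 0.05 in edgeR, where 6.88% of all genes did, or in DESeq2. Cenpa had the smallest p, with a mean of 68.7 ± 40.7 CPM for LSD1WT (SD, n = 2) and of 37.5 ± 5.49 CPM for LSD1cKO (SD, n = 2), a log2 fold change of -0.87 (SE 0.60, adjusted p 0.807 in edgeR's quasi-likelihood test). Cdc20 had -0.62 (SE 0.45, adjusted p 0.819) and Plk1 had -0.82 (SE 0.65, adjusted p 0.832) in the same test. The LSD1WT pair decided the size, and for the replication genes also the direction, with replication and mitotic medians of -0.81 and -0.78 without replicate 2 and of 0.43 and -0.26 without replicate 1. With both femur LSD1WT replicates 2 left out 9 genes were called, 8 lower (4 replication and 4 mitotic genes) and 1 higher (Ccnd3), where 2.46% and 6.89% of all genes were called lower and higher (edgeR's quasi-likelihood test), but LSD1WT is then 1 library that is assumed to vary like the other groups.

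The genotype effect in mandible minus that in ligated femur was positive for all 18 replication and all 18 mitotic genes, with median log2 differences of 0.96 and 1.27, against 0.10 for all genes. It was positive for 45 of the 46 genes and for 57.3% of all genes. As a test of the difference itself it called 0 of the 46, with 0 at an unadjusted p under 0.05, where 0.966% of all genes were, and DESeq2 gave the same counts (0 and 0). Kif11 had 1.34 (SE 0.74), Cdk2 had 0.71 (SE 0.40) and Cenpa had 1.49 (SE 0.85), all with an adjusted p of 1 (edgeR's quasi-likelihood test). Without ligated femur LSD1WT replicate 1 the medians were 0.14 and 0.87. The genes that were higher in LSD1cKO in the mandible and lower in LSD1cKO in the ligated femur, both without overlap, were 12 of the 18 mitotic genes (66.7%), 3 of the 10 S phase entry genes (Ccnd1, Cdk2 and E2f1) and 1 of the 18 replication genes (Gins2), where 3.64% of all genes were. The 12 are Mki67, Top2a, Ccna2, Ccnb2, Cdk1, Aurkb, Plk1, Cdc20, Kif11, Kif23, Tpx2 and Foxm1. The split between mitotic and replication genes goes with ligated femur LSD1WT replicate 2, whose mitotic level was above both LSD1cKO libraries of the ligated femur (-0.78 against -1.13 and -0.88) while its replication level was below both (-1.31 against -1.09 and -0.80).

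In the unligated femur, LSD1cKO and LSD1WT libraries overlapped for all 46 genes, where 9.82% of all genes were higher and 8.57% lower without overlap. Means were lower in LSD1cKO for 45 of them and higher for 1, where 44.6% of all genes were higher, with median log2 fold changes of -0.40 for replication and -0.39 for mitotic genes, and 1 gene had an unadjusted p under 0.05, where 4.95% of all genes did. That gene was Ccnd2, with a mean of 38.7 ± 50.5 CPM for LSD1WT (SD, n = 2) and of 3.69 ± 0.482 CPM for LSD1cKO (SD, n = 2), a log2 fold change of -3.39 (SE 1.23, adjusted p 0.834 in edgeR's quasi-likelihood test). Ccnd1 had -1.86 (SE 0.90) and Tpx2 had -0.86 (SE 0.58), both with an adjusted p of 1 in the same test. DESeq2 called 0, with 2 at an unadjusted p under 0.05, and its own share of all genes at that level was not counted. The edgeR values rested on LSD1WT replicate 2, and without it the medians were 0.62 and 0.77, Ccnd2 was at 0.30, Ccnd1 at 0.95 and Tpx2 at 0.68.

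Ligated and unligated femur come from different mice. In LSD1cKO 43 genes had a lower mean after ligature and 3 a higher one, where 45% of all genes had a higher mean. Without overlap 29 were lower (11 replication, 15 mitotic and 3 S phase entry genes) and 3 higher, where 16% and 14% of all genes were. Medians were -1.12 for replication and -1.05 for mitotic genes, against -0.04 for all genes, and 2 genes were at an unadjusted p under 0.05, where 0.959% of all genes were. Cdc20 had a log2 fold change of -1.12 (SE 0.46), Foxm1 had -1.47 (SE 0.64) and Mcm3 had -1.23 (SE 0.55), all with an adjusted p of 1 (edgeR's quasi-likelihood test). DESeq2 called 0, with 7 at an unadjusted p under 0.05, and its own share of all genes at that level was not counted. Without unligated LSD1cKO replicate 2 the medians were -0.55 and -0.64. In LSD1WT 44 genes had a lower mean after ligature, by medians of -1.11 and -0.99 for replication and mitotic genes, and 2 a higher one, where 54.2% of all genes had a higher mean. Without overlap 5 were lower and 0 higher, where 3.93% and 5.25% of all genes were. Ccnd1 had -2.63 (SE 0.92), Mcm3 had -1.25 (SE 0.55) and Tyms had -1.11 (SE 0.50), all with an adjusted p of 1 (edgeR's quasi-likelihood test). At an unadjusted p under 0.05 there were 2 genes in edgeR's test, where 0.765% of all genes were. DESeq2 called 0, with 10 at that level, and its own share of all genes at that level was not counted. Without unligated LSD1WT replicate 2 the medians were -0.17 and 0.23, and without ligated replicate 1 the fit called Cdt1 as lower, where 0.192% of all genes were called and the ligated group is 1 library assumed to vary like the other groups.

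Over the 3 cultures together, LSD1cKO against LSD1WT was fitted with terms for culture and for genotype, over 6 libraries of each genotype. Of the 46 genes 0 passed, where 544 of all genes (3.53%) did, and 0 had an unadjusted p under 0.05, where 16.1% did (edgeR's quasi-likelihood test). DESeq2 called 0, with 1 at that level, and its own share of all genes at that level was not counted. Of the 46, 0 were without overlap in the same direction in each of the 3 cultures, where 5.17% of all genes were higher and 3.2% lower by that rule. This follows from the unligated femur alone, where the libraries of all 46 overlapped. The medians were -0.09 for replication and -0.14 for mitotic genes, against -0.07 for all genes, with 14 genes higher and 32 lower, where 40.9% of all genes were higher, and the medians were 0.28 and 0.23 without unligated femur LSD1WT replicate 2. Ccnd2 had the smallest p, at a log2 fold change of -1.56 (SE 0.76, 95% interval -3.25 to 0.13, adjusted p 0.355), followed by Cdkn1b at -0.26 (SE 0.153, adjusted p 0.469) and Ccnd3 at 0.29 (SE 0.27, adjusted p 0.677; edgeR's quasi-likelihood test for all). With both femur LSD1WT replicates 2 left out Cdkn1a and Ccnd3 were called higher, where 14.4% of all genes were called higher.

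Other genes of the same pathways, from lists written from general knowledge but with earlier results of these data known, were read in the same fits. Of 47 other mitotic genes, 47 were higher in mandible LSD1cKO than in mandible LSD1WT without overlap (34.1% of all genes), by a median of 0.65, and 26 were lower in the ligated femur without overlap (19.4% of all genes), by a median of -0.50. Between mandible and ligated femur of LSD1cKO mice 46 of the 47 were higher without overlap (35.3% of all genes), by a median of 1.85, 42 at an unadjusted p under 0.05 (8.18% of all genes), and the mouse block called 45 higher and 1 lower (18.9% and 18.6% of all genes) (edgeR's quasi-likelihood test). Against the same shares of all genes, of 41 other replication genes 37 were higher in mandible LSD1cKO without overlap (median 0.42), 9 were lower in the ligated femur without overlap (median -0.18), near the share of all genes, and 40 were higher in mandible than in ligated femur of LSD1cKO mice (median 1.23), 29 at an unadjusted p under 0.05 and 37 called with the mouse block (edgeR's quasi-likelihood test). The other E2F, pocket protein and CDK inhibitor genes (20) were mixed, with 13 higher and 4 lower without overlap in mandible LSD1cKO, where 34.1% and 34.8% of all genes were. Over the 3 cultures 0 genes of these lists passed (1, 0 and 2 at an unadjusted p under 0.05, for replication, mitotic and E2F lists, where 16.1% of all genes were), and the smallest p values belonged to Gins3 (log2 fold change 0.64, SE 0.20) and Rfc2 (0.20, SE 0.122) for replication, Pttg1 (0.24, SE 0.119) and Cdc25b (0.43, SE 0.256) for mitosis, and E2f6 (-0.30, SE 0.119) and E2f3 (-0.32, SE 0.139) for the E2F list (edgeR's quasi-likelihood test). DESeq2 called 1 gene of these lists, Gins3 as higher (adjusted p 0.0353), where it called 5.34% of all genes as higher. Of 13 target genes of p53, Sesn2, a stress-induced inhibitor of mTORC1 signalling, passed over the 3 cultures, where 3.53% of all genes did. Its mean was 29.6 ± 10.5 CPM for LSD1WT (SD, n = 6) and 17.2 ± 3.08 CPM for LSD1cKO (SD, n = 6), a log2 fold change of -0.76 (SE 0.179, adjusted p 0.0456), and Phlda3 was at -0.77 (SE 0.198, adjusted p 0.0654; edgeR's quasi-likelihood test for both). DESeq2 called 3 of the 13 as lower (largest adjusted p 0.00615), Phlda3 among them at -0.755. The share of all genes that DESeq2 called lower is not given here, so that count has no baseline. Sesn2 no longer passed without either mandible LSD1WT library and in most other alternatives.

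The femur LSD1WT replicates 2 had few osteoclast transcripts and many macrophage transcripts alike, and they differed in the cell cycle genes. The unligated library had the highest replication and mitotic levels of all 12, and the ligated library had the lowest replication level (-1.31) but not the lowest mitotic level (-0.78). The ratio of unligated to ligated replicate 2 had a median of 5.15 over the replication genes (range 2.2 to 9.36) and of 3.96 over the mitotic genes (1.13 to 5.49), and all 36 were higher in the unligated library. The level of all genes tested, taken as for the groups, was -0.007 in the unligated and 0.014 in the ligated library. The ratio sets 1 library against 1, and the share of all genes that were higher was not counted. Cyclin D1 was at 839 CPM in the unligated and 72.2 CPM in the ligated library, and Cdkn1a was at 284 and 339.6 CPM, the highest values of Cdkn1a among the 12 libraries. Megakaryocyte markers summed to 435 CPM in the unligated and 890 CPM in the ligated library, against 9.96 to 57.7 CPM in the others, and the part of other cells in these values was not tested.

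**Figure D5:**
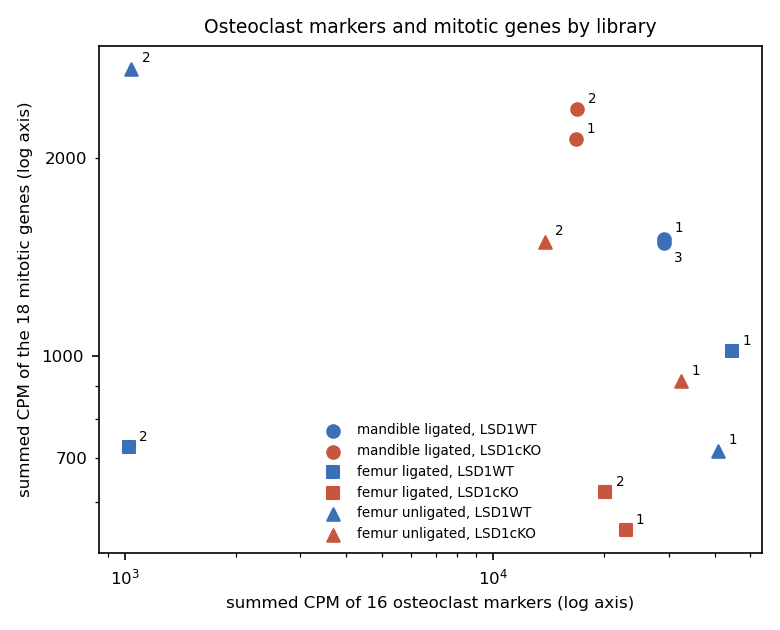
Summed CPM of 16 osteoclast markers against summed CPM of the 18 mitotic genes, both on log axes, with 1 point for each library (colour genotype, shape culture, number replicate). The femur LSD1WT replicates 2 sit far to the left, 1 at the top and 1 low, and the other libraries lie between 13850 and 44530 CPM of osteoclast markers.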

How the data were processed

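PolyA RNA of 12 cultures of mouse preosteoclasts was sequenced, and the authors deposited 1 table of raw read counts per gene. The submitters' processing notes name FastQC, HISAT2 2.1.0, featureCounts, edgeR and the build GRCm39, while the strand setting and the treatment of reads with several hits are not given in the sources used here. Groups were taken from the labels. The genes and all gene lists were chosen with earlier results of these data known. Total counts were 21375805 to 32526751 per library, and 57010 genes were listed.

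The deposited counts were analysed in R 4.3.3 with edgeR 4.0.16 and limma 3.58.1: genes with low counts were removed (filterByExpr), libraries were scaled by TMM, and edgeR's quasi-likelihood test was fitted over all 12 libraries, with 6 conditions, or with culture and genotype for the comparison over the 3 cultures. P values were adjusted over all genes by the Benjamini-Hochberg method, with a threshold of 0.05. Levels are CPM, and log2 CPM used a prior count of 2. Genes were described with values in every library if on a fixed list of 16 or if, in any comparison, they passed or were among the 3 of smallest p. The scripts were tested on simulated data.

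The mandible and ligated femur libraries of LSD1cKO mice 1 and 2 and of LSD1WT mouse 1 came from the same animals by their labels, and their deviations from the group means had correlations of 0.026 and 0.0296. Alternatives were DESeq2 1.42.0, other scalings and filters, each library left out, the compared libraries alone, the library of conflicting labels as femur or summed with its partner, blocks by mouse or replicate number, and, added after seeing the data, both femur LSD1WT replicates 2 left out. Promoter sequences came from RefSeq (GRCm38.p6), and coordinates in GRCm39 were not used here.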

Additional observations from a re-analysis of the deposited data

Results flagged for a closer look

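Within each genotype the highest or lowest of the 6 libraries was tested for standing apart from the others (gap to the nearest library divided by the range, against Dixon's 95% critical value). Of the 92 tests 15 passed, and the groups hold 3 cultures each. Chance flags about 1 in 20 of independent tests, but most of the genes tested varied together, so that rate is no baseline here. How many of all genes the same rule would flag was not counted, so the 15 cannot be called particular to these genes. In all 15 it was the highest LSD1WT library that stood apart, and it was unligated femur replicate 2 each time. Among the replication genes these were Mcm3 at 139.1 CPM, Gins2 at 36.69 CPM, Pcna at 391.8 CPM and Tk1 at 87.96 CPM. Of the genes for S phase entry, Ccnd1 was at 839.4 CPM, Ccnd2 at 74.37 CPM and E2f1 at 58.6 CPM. The mitotic genes were Mki67 at 582.7 CPM, Ccna2 at 205.3 CPM, Aurkb at 67.96 CPM, Plk1 at 98.1 CPM, Kif11 at 131.3 CPM, Kif23 at 112.2 CPM, Tpx2 at 143.9 CPM and Foxm1 at 97.28 CPM. In this library osteoclast markers summed to 1042 CPM and macrophage markers to 21840 CPM, and their part in these values was not tested.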

How the results depend on the processing

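Of the counts and medians recomputed under the alternatives, 541 were taken as unchanged and 41 as moved, and the cause was not tested. A count was unchanged if it equalled the reported count, which was 0 in every comparison. A median was unchanged if it moved by less than the spread between libraries of a condition, which is wide in the femur. The replication median over the 3 cultures, -0.094, thus counts as unchanged at 0.278 without unligated femur LSD1WT replicate 2. For LSD1cKO against LSD1WT in the mandible, the medians of the replication and mitotic genes were 0.61 and 0.69 without the filter on low counts and 0.31 and 0.34 with the replicate number as a block (replicate block), and 42 genes were called from the compared libraries alone, where 37.7% of all genes were. Leaving out both femur LSD1WT replicates 2 called 2 genes over the 3 cultures, 4 in the mandible and 38 for mandible against ligated femur in LSD1cKO, where 24.2%, 5.85% and 21.7% of all genes were. For genotype in the ligated femur, where LSD1WT is then 1 library, it gave medians of -0.72 and -0.69. It also gave medians of 0.62 and 0.77 for genotype in the unligated femur, 0.29 and 0.40 for ligature in LSD1WT, and 0.53 for the mitotic genes in mandible against femur in LSD1WT, where taking the library of conflicting labels as femur gave 0.50. For mandible against ligated femur DESeq2 called 1 gene in LSD1WT and 24 in LSD1cKO (7.65% and 5.33% of all genes), no filter 1 and 19 (3.02% and 1.21% of all genes), and the replicate block by mouse 12 and 44 (7.18% and 37.5% of all genes), and the compared libraries alone called 44 in LSD1cKO (42.1% of all genes). The replicate block gave 0.98 for the mitotic genes in the difference of genotype effects. Numbers shared between genotypes mark different mice, and that block called 0 genes, the mouse block being the one that changed calls. Leaving out 1 library at a time gave replication medians of 0.52 to 0.59 (genotype, mandible), -0.81 to 0.43 (ligated femur), -0.92 to 0.62 (unligated femur), 0.62 to 1.77 (site, LSD1WT), -1.44 to -0.55 (ligature, LSD1cKO) and 0.14 to 1.38 (difference of effects). Mitotic medians were then -0.99 to 0.77 (unligated femur), 0.50 to 1.15 (site, LSD1WT), -1.64 to 0.23 (ligature, LSD1WT), -1.35 to -0.64 (ligature, LSD1cKO) and 0.87 to 1.34 (difference of effects). Calls were 0 to 11 and 0 to 9 for site in LSD1WT and LSD1cKO and 0 to 1 for ligature in LSD1WT. Direction changed for 6 of the named values. Without unligated femur LSD1WT replicate 2, or without both replicates 2, genotype in the unligated femur gave 0.298 and 0.299 for Ccnd2, 0.95 and 0.95 for Ccnd1 and 0.675 and 0.676 for Tpx2, and ligature in LSD1WT gave 0.118 and 0.131 for Ccnd1 and 0.021 and 0.331 for Mcm3, while without unligated replicate 1 these were, in the same order, -4.26, -2.68, -1.51, -3.52 and -1.92. Over the 3 cultures Ccnd2 was at 0.029 without both. For genotype in the mandible, the log2 fold changes of all genes shifted by a median of -0.001 with the other scaling (RLE). The largest median shift among the alternatives was 0.068, without the filter on low counts. Such shifts were not computed for the other comparisons. With 2 libraries in a condition, precision is set by the spread between libraries rather than by depth.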
